A study of Mus musculus with 7 samples.

Results

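Neurotransmitter receptors were taken as the genes whose symbol in the platform annotation began as those of the nicotinic (Chrna to Chrng) and muscarinic (Chrm) acetylcholine receptors, the serotonin receptors (Htr), the GABA-A receptors (Gabr), the ionotropic glutamate receptors (Gria, Grin and Grik) or the α and β adrenergic receptors (Adra and Adrb). The pattern found 63 of the 18194 genes measured. They comprised 15 nicotinic, 3 muscarinic, 13 serotonin, 15 GABA-A, 15 ionotropic glutamate and 2 adrenergic genes, read by 125 probe sets that name a single gene. A further 16 protein-coding genes of the gene table fit the pattern and were not analysed here, so the classes do not cover every receptor of their family and the counts below speak only of the 63. The samples were whole colon of inbred C57BL/6 mice, not treated or otherwise manipulated, with 1 Affymetrix whole-genome mouse array for each embryonic day of the range E13.5 to E18.5 and 1 array of the adult at 8 weeks after birth. Expression is on the authors' log2 scale, on which a difference of 1 is a change of 2 fold, and a gene with several probe sets was given their median.

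Receptors of the colon sit on enteric neurons, smooth muscle, interstitial cells, epithelium and endocrine cells. Nicotinic receptors, the serotonin 3 receptors, GABA-A receptors and ionotropic glutamate receptors are ion channels assembled from several subunits, so that a channel depends on the combination of subunits a cell makes. Muscarinic receptors, adrenergic receptors and the other serotonin receptors signal through G proteins. In the gut, acetylcholine acting on nicotinic receptors carries most fast signals between enteric neurons, muscarinic receptors carry the signal to muscle, and serotonin released by enterochromaffin cells of the epithelium acts on nerve endings and muscle.

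The promoters of 5 receptor genes, chosen after their values were seen, are given from the RefSeq table. Htr2b was the gene that rose, and Gria2 and Gria4 each had a probe set called lower in the adult. Grik3 and Chrna3 had their highest value at E15.5 and a range of at least 1. Gria3 had both of these traits, but no promoter window was available for it. Each runs 5′ to 3′ on the strand of the gene, from 250 bases before the transcript start that the table uses to 50 bases after it (GRCm38.p6), and capitals mark the E box CANNTG, the motif bound by basic helix-loop-helix factors, which reads the same on both strands and includes the CAGCTG form. The windows are chr1:86111931-86112230 (minus strand) for Htr2b, chr3:80802786-80803085 (minus) for Gria2, chr9:4796185-4796484 (minus) for Gria4, chr4:125490446-125490745 (plus) for Grik3 and chr9:55026513-55026812 (minus) for Chrna3. That start is the outer end of the gene for Gria4 and Chrna3, and lies 4251 bases inside it for Htr2b, 1392 for Gria2 and 437 for Grik3.
Htr2b: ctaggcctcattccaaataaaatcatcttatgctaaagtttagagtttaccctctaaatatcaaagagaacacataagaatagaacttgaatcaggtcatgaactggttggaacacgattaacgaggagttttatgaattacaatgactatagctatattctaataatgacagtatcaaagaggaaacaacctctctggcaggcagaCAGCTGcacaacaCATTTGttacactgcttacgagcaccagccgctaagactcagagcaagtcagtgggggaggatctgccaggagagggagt
Gria2: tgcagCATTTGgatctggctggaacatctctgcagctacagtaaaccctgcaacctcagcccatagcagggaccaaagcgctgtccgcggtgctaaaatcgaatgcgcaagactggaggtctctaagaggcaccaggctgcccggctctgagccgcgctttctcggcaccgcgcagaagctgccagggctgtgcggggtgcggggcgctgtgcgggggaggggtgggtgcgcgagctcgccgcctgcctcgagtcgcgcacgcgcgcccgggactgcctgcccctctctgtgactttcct
Gria4: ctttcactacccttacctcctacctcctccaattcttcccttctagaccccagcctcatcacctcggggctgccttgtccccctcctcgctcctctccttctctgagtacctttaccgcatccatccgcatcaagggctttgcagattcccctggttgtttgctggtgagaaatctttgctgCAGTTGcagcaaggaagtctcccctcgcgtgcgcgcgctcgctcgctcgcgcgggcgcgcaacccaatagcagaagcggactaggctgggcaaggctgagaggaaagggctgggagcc
Grik3: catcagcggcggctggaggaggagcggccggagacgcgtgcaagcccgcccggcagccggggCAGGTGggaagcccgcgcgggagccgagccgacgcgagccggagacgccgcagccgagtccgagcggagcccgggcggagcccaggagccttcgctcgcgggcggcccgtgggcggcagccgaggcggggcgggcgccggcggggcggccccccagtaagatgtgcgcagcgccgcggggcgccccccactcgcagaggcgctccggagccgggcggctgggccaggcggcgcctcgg
Chrna3: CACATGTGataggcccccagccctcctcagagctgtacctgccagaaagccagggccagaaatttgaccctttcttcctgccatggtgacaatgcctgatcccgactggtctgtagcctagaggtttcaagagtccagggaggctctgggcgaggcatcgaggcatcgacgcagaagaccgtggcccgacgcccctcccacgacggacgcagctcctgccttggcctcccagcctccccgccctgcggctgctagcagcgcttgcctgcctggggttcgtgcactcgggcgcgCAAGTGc

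Htr2b held 2 E boxes, a CAGCTG 43 bases before the start and a CATTTG 30 bases before it. Gria2 held 1 at 245 bases before the start, Gria4 1 at 68 and Grik3 1 at 188. Chrna3 held 3, of which a pair overlapped at 250 and 248 bases before the start. The motif is common. It was in 36 (64.3%) of the 56 windows found for 48 receptor genes and in 72.3% of the 32851 windows of all genes, and CAGCTG was in 16.1% and 16.3%. A match describes the letters of the window only.

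With 1 array per stage there were no replicates, and the spread around a straight line through the 6 embryonic arrays was the only error available. limma fitted for each gene a slope per embryonic day and the difference between the adult array and the level fitted at E18.5, with 4 residual degrees of freedom before the variances were shared across genes, and the adult stage, with its only array, was given the same spread as the others. The p-values were adjusted over all genes by Benjamini-Hochberg. The threshold for a slope was an adjusted p of 0.05, and a call in the adult needed in addition a size of at least 1. The median gene had a log2 level between 6.07 and 6.17 on the 7 arrays. The difference between the 5′ and 3′ control probe sets, a measure of RNA integrity, was -2.41 for Gapdh in the adult against -1.59 to -1.29 in the embryonic arrays, and -2.66 against -2.14 to -1.96 for Actb. This difference of the adult array moves with every adult difference below, and its part in them was not tested. Each sample held whole tissue, so fewer cells of a type and less RNA per cell cannot be told apart.

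Most receptor genes had low values and changed little over the stages. The mean over the 7 arrays had a median of 5.09 in receptor genes against 6.13 over all genes. It lay below that of the median gene in 56 of the 63, and in 51 even the highest array did. At such levels a small range does not show that a receptor was expressed at a steady level. The range over the 7 arrays had a median of 0.38 against 0.52 over all genes and was under 0.5 in 44 receptor genes, which is 69.8% of them against 47.7% of all genes. A range of at least 1 was found for 6 receptor genes (9.52%), namely Chrna3, Gria3, Grik3, Htr2b, Htr3a and Htr4, against a background of 23.5% of all genes.

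Along the embryonic line 1 receptor gene rose (1.59%), the serotonin receptor Htr2b, against 9.12% of all genes. Another 2 fell (3.17%), the GABA-A subunits Gabra3 and Gabra4, against 10.4% of all genes. In the adult, 1 was higher (Htr4, background 4.23%) and 2 were lower (Gria3 and Htr2b, background 3.26%). At an unadjusted p under 0.05 the counts were 8 slopes (12.7% against 31.3% of all genes) and 14 adult differences (22.2% against 31.0%). Set against the mean of the last 2 embryonic arrays, the adult differences were about as large (1.49 for Htr4, -1.24 for Gria3 and -1.62 for Htr2b) but had an adjusted p of 0.0888 each, and that fit called 0 of all genes. The rank correlation with developmental order exceeded 0.9 in 1 receptor gene (Chrm1, rho 0.93, background 6.5%) and lay below -0.9 in none (background 7.73%). The study used this cutoff for development-related genes and then kept those that varied most over the stages, a step not taken here. The median slope was 0.0173 per day in receptor genes against 0.0009 in all genes, and the median adult difference -0.0039 against 0.0334. The highest value fell at E15.5 in 14 receptor genes, against 2631 of all 18194, and in the adult in 17, against 6083. Without the E15.5 array, the slopes called over all genes went from 1660 rising and 1884 falling to 2076 and 2523. Without any other embryonic array both counts were smaller. The E15.5 array also had the lowest embryonic difference of the 5′ and 3′ control probe sets (-1.59 for Gapdh and -2.14 for Actb). A peak at E15.5 rests on this array alone.

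**Figure D1:**
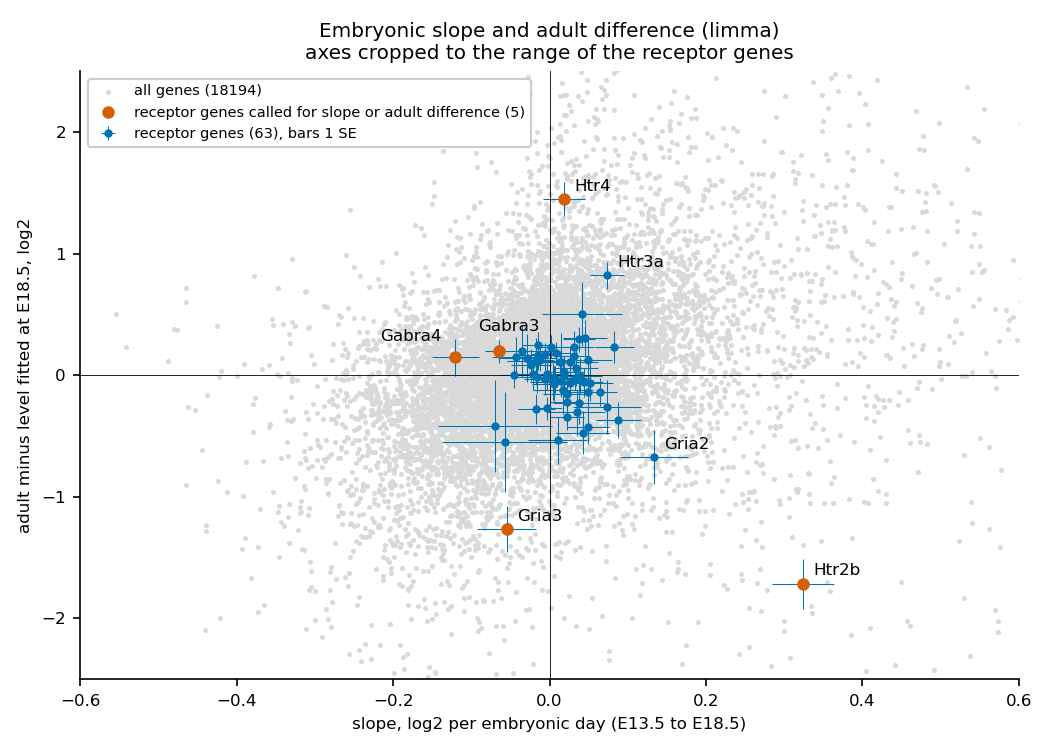
Embryonic slope (log2 per day, x axis) against the adult minus the level fitted at E18.5 (log2, y axis) for each gene; grey points are all genes inside the axis limits, blue points the 63 receptor genes with bars of 1 SE, and orange points the 5 called. Most receptor genes lie near 0 on both axes, Htr2b stands at 0.32 and -1.72, Htr4 at an adult difference of 1.45 and Gria3 at -1.26.

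Among the serotonin receptors, Htr2b rose before birth and was lower in the adult, and Htr4 was higher in the adult. Htr2b, a receptor coupled to Gq, read 6.83, 7.04, 7.14, 7.74, 8.29 and 8.23 from E13.5 to E18.5 and 6.64 in the adult. The last 2 embryonic arrays were the highest of the series, and the adult lay below every embryonic value. The slope was 0.32 ± 0.04 (SE) per day (limma, adjusted p = 0.00313), with a level at E18.5 that was 2.63 fold that at E13.5. The adult difference was -1.72 ± 0.20 (SE), or 3.29 fold lower (limma, adjusted p = 0.00193). A slope that takes in the adult as the last step of 7 was 0.11 and was not called (adjusted p = 0.559), and under that slope the 2 receptor genes that rose were Grin3b and Htr3a. Htr2b has a single probe set, so that no other can be set beside it. The slope remained between 0.29 and 0.36 when each embryonic array was left out in turn.

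Htr4, a receptor coupled to Gs that enhances release of acetylcholine from enteric nerve endings, read 4.51, 4.37, 4.70, 4.60, 4.60 and 4.52 in the embryonic arrays and 6.04 in the adult. The adult stood above all embryonic arrays, which lay between 4.37 and 4.70. The adult difference was 1.45 ± 0.14 (SE), or 2.73 fold (limma, adjusted p = 0.000818). Its probe sets were unlike each other. One read 4.60, 4.34, 5.01, 4.79, 4.79 and 4.63 in the embryonic arrays and 7.61 in the adult, 7.07 fold higher than the level fitted at E18.5 (limma over probe sets, adjusted p = 0.000686), and the other had a range of 0.096 over the 7 arrays. The gene value lies midway between them.

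Htr3a, the subunit needed for every serotonin-gated channel, was not in the rule for named genes and was chosen after its values were seen. It read 5.01, 4.92, 4.99, 5.17, 5.19 and 5.33 from E13.5 to E18.5 and 6.11 in the adult, the adult again above all embryonic arrays. The adult difference of 0.82 ± 0.11 (SE) passed the adjusted p (limma, 0.00348) but was below the size of 1 required for a call, and the slope of 0.07 per day did not pass (adjusted p = 0.0595). Htr1b, an inhibitory receptor coupled to Gi, read 5.42, 5.71, 5.73, 5.79, 5.81 and 5.69 and then 5.39 in the adult. Its highest values lay at E16.5 and E17.5, and neither term was called (adjusted p = 0.282 for the slope and 0.0842 for the adult). The 11 serotonin receptor genes without a call had ranges from 0.22 (Htr3b, the partner of Htr3a in the channel) to 1.19 (Htr3a).

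**Figure D2:**
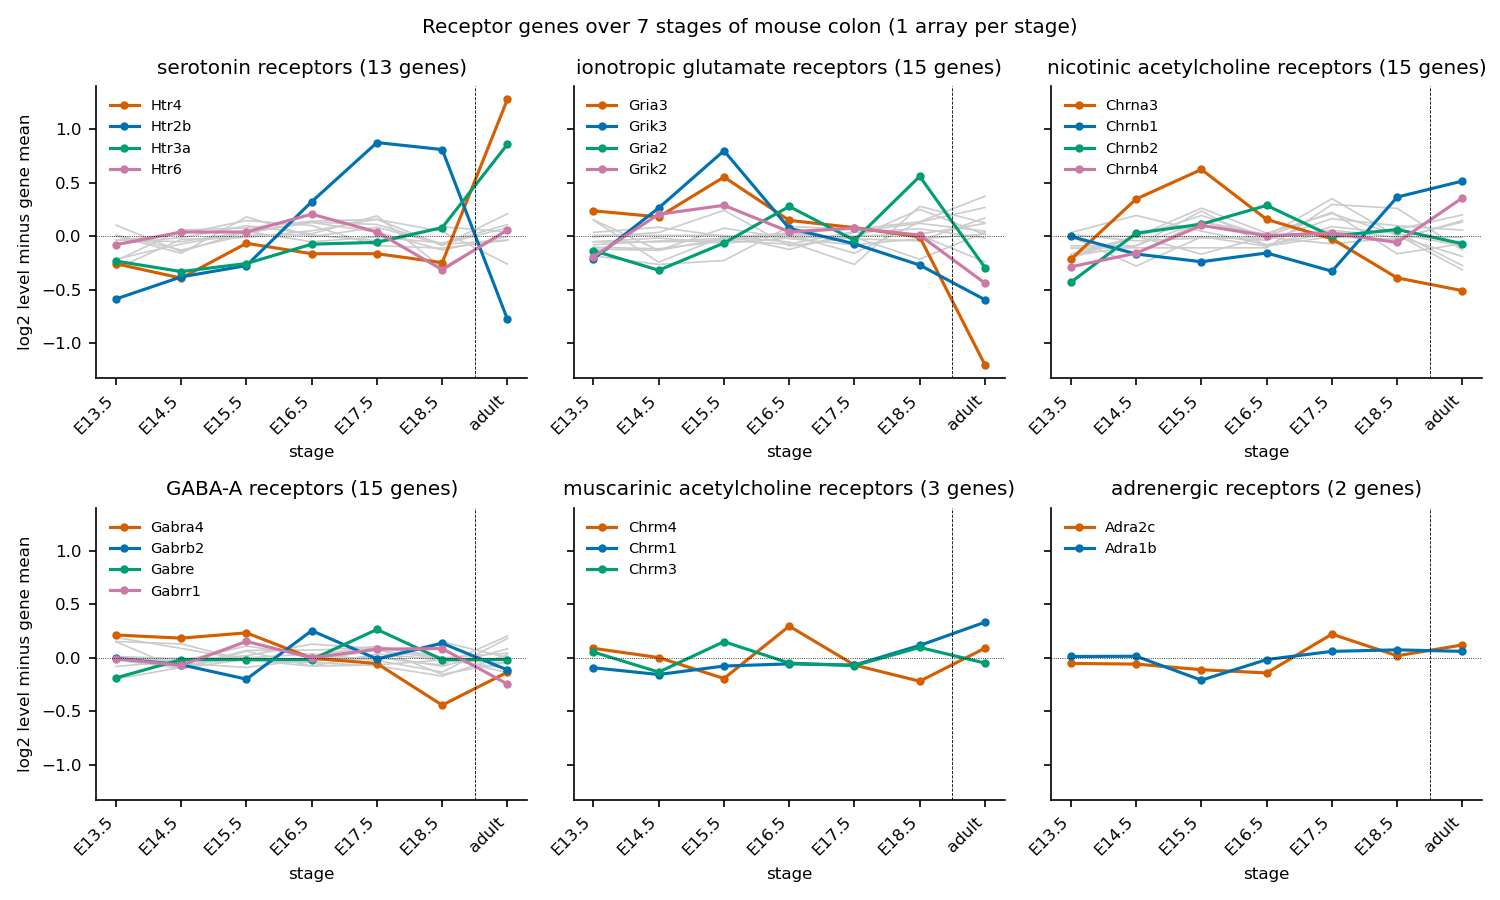
Log2 level minus the mean of the gene over the 7 arrays (y axis) by stage (x axis, E13.5 to adult, 1 array each), 1 panel per transmitter class, with up to 4 genes of widest range in colour and the others in grey; the dashed line marks birth. The lines that leave the bundle in the serotonin, glutamate and nicotinic panels are those of Htr2b, Htr4, Htr3a, Gria3, Grik3 and Chrna3, whose ranges run from 1.13 to 1.76, and the widest GABA-A range is 0.68.

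The genes that make, carry and break down serotonin were set beside the receptors. Of the 8 measured, 1 rose along the embryonic line (background 9.12%) and 2 were called higher in the adult (background 4.23%). Maob, a monoamine oxidase, read 6.22, 6.43, 6.62, 7.05, 8.11 and 9.16 from E13.5 to E18.5 and 7.93 in the adult, with a slope of 0.58 ± 0.08 (SE; limma, adjusted p = 0.0048). Tph1, the enzyme that limits serotonin synthesis in enterochromaffin cells, read between 5.02 and 5.36 in the embryonic arrays and 7.72 in the adult (difference 2.40 ± 0.16, SE; limma, adjusted p = 0.00019). Maoa, the other monoamine oxidase, read between 7.18 and 8.16 and then 10.24 (2.21 ± 0.28, SE; limma, adjusted p = 0.00249). The adult was thus the highest of the 7 arrays for Tph1 and Maoa, as it was for Htr4 and Htr3a and for 33.4% of all genes. It was also the highest for the serotonin transporter Slc6a4 (6.20), whose adult difference of 0.63 was under the size of 1. Slc18a2, the vesicular monoamine transporter and chosen after its values were seen, read 5.54, 6.55, 6.64, 6.17, 6.01 and 5.75 before birth and 5.01 in the adult, which was the lowest array, as for Htr2b. Its adult difference of -1.02 ± 0.47 (SE) did not pass (limma, adjusted p = 0.195).

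Of the ionotropic glutamate receptors, the AMPA subunits Gria2, Gria3 and Gria4 each had 1 probe set called lower in the adult, and Gria3 alone was called as a gene. Gria3 read 6.84, 6.78, 7.15, 6.75, 6.68 and 6.59 in the embryonic arrays and 5.40 in the adult. All 6 embryonic values lay more than 1 above the adult. The adult difference was -1.26 ± 0.19 (SE), or 2.40 fold lower (limma, adjusted p = 0.00533), and the slope of -0.06 was not called (adjusted p = 0.393). One probe set carried the difference, with 8.38, 8.31, 8.59, 8.17, 8.07 and 8.02 before birth and 5.45 in the adult, 6.06 fold lower than fitted (limma over probe sets, adjusted p = 0.000261). The other read between 5.17 and 5.72 on all 7 arrays, with an adult difference of 0.07 ± 0.22 (SE).

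The next genes were chosen after their values were seen, because single probe sets moved where the gene value did not. Gria2, the subunit whose edited form makes AMPA receptors impermeable to calcium, was read by 3 probe sets. The first read 6.61, 6.85, 6.87, 6.79, 7.22 and 7.36 from E13.5 to E18.5 and 5.92 in the adult. It rose along the embryonic line and then stood lowest in the adult. Its slope was 0.14 ± 0.03 (SE; limma over probe sets, adjusted p = 0.0273) and its adult difference -1.38 ± 0.16 (SE; adjusted p = 0.00205). The second read 4.63, 5.15, 5.70, 5.21, 5.21 and 5.40 and then 4.30, and its adult difference of -1.17 did not pass (adjusted p = 0.0558). The third, which is the median and so the value of the gene, had an adult difference of -0.67 (adjusted p = 0.098).

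Gria4, a further AMPA subunit, showed the same split. One probe set read 7.15, 7.87, 8.19, 8.29, 8.19 and 8.15 in the embryonic arrays and 7.12 in the adult, so that the adult matched E13.5 and lay below the 5 later days. Its adult difference was -1.29 ± 0.31 (SE; limma over probe sets, adjusted p = 0.0327). The other Gria4 probe sets had ranges of 0.19 and 0.38, and the gene value had an adult difference of -0.04. Gria1, the remaining AMPA subunit, had a range of 0.18 over the 7 arrays.

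Among the kainate receptor subunits, Grik2 and Grik3 had their highest value at E15.5. With 1 array at E15.5, a trait of the stage and a trait of that array cannot be told apart. Grik3 read 5.78, 6.26, 6.79, 6.07, 5.92 and 5.72 from E13.5 to E18.5 and 5.40 in the adult. The value was larger on each array up to E15.5 and smaller on each one after it, a course that a straight line does not describe, and neither term was called (adjusted p = 0.705 and 0.446). One Grik3 probe set spanned 2.74, with 7.45 on the E15.5 array and 4.71 in the adult, and the other spanned 0.09. For Grik2, chosen after its values were seen, one probe set read 5.31, 6.10, 6.28, 5.78, 5.83 and 5.78 and then 4.65, with an adult difference of -1.27 ± 0.36 (SE; limma over probe sets, adjusted p = 0.057). Its other probe set had a range of 0.23. Grik4, also a kainate subunit, read 7.05, 7.03, 7.10, 7.16, 6.99, 7.28 and 7.42 in the order of the stages, with no term called.

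The NMDA receptor genes had ranges from 0.19 (Grin3a) to 0.64 (Grin3b), and none was called. Grin3b, an NMDA subunit that lowers calcium entry, read 7.21, 7.12, 7.16, 7.48, 7.45 and 7.52 from E13.5 to E18.5 and 7.76 in the adult. Its slope of 0.08 ± 0.02 (SE) had an adjusted p of 0.0621 (limma), and it was called when E15.5 was left out and with a slope through the adult. The glutamate receptor genes without a call numbered 14 of 15, with ranges from 0.18 to 1.39. Of the 6 genes measured that make, load or take up glutamate, none was called. Glul, glutamine synthetase, read 9.62 to 10.14 in the embryonic arrays and 10.81 in the adult, a difference of 0.85 that was under the size of 1 (limma, adjusted p = 0.0118). Of 15 scaffold and auxiliary genes of glutamate receptors, 1 was called, as falling, against 10.4% of all genes. Grip1, which binds AMPA receptor subunits, read 6.28, 6.06, 5.91, 5.79, 5.47 and 5.50 and then 5.03, and fell by 0.17 ± 0.02 (SE) per day on the log2 scale (limma, adjusted p = 0.00386).

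**Figure D3:**
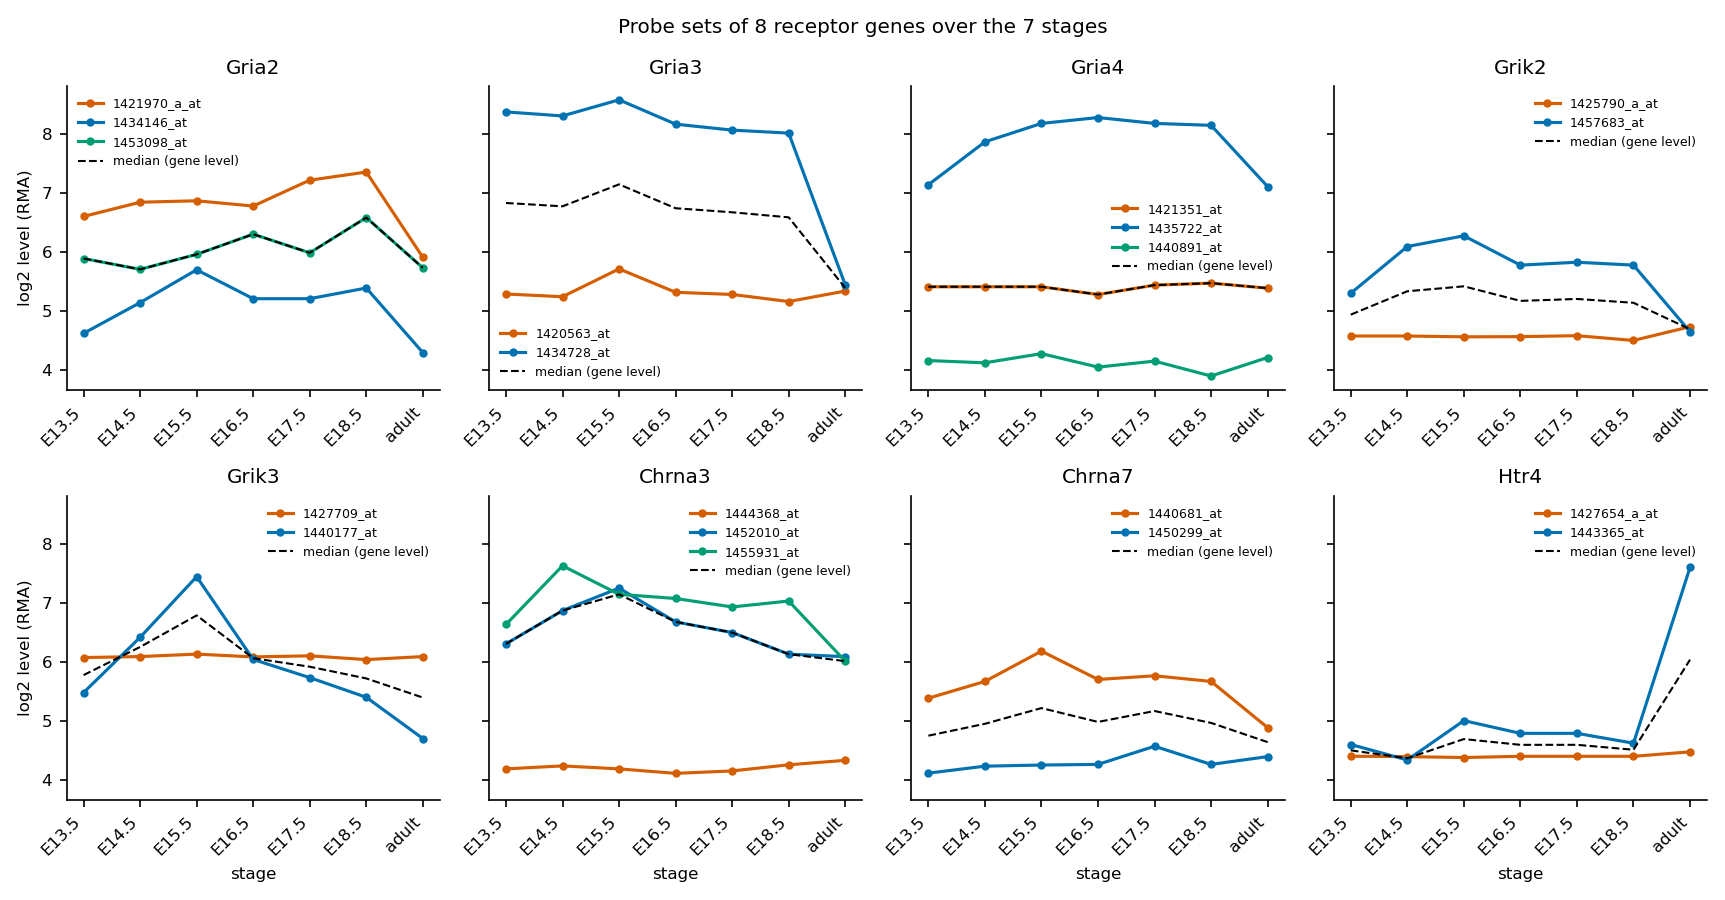
Log2 level by stage (x axis, E13.5 to adult, 1 array each) of each single-gene probe set of selected receptor genes, 1 panel for each of 8 genes; the dashed line is their median, the value of the gene. For Gria3, Htr4 and Grik3, 1 probe set spans 3.14, 3.26 and 2.74 and the other 0.55, 0.096 and 0.093.

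This split was not confined to the genes above. Of the 39 receptor genes with several probe sets, 10 had at least 1 probe set with a range of 1 or more, and in 9 of these another had a range under 0.6. The sign of the slope differed between probe sets in 18 of the 39, and the sign of the adult difference in 20. These counts were not made over all genes with several probe sets, so they do not set receptor genes apart. Taken singly, 14 of the 125 probe sets (11.2%) had a range of at least 1, against 25.9% of all single-gene probe sets. Of the 125, 3 rose (2.4%, background 7.24%), 2 fell (1.6%, background 9.55%), 1 was higher in the adult (0.8%, background 3.94%) and 4 were lower (3.2%, background 4.21%). When each gene was given its probe set of highest mean, 5 receptor genes were lower in the adult (7.94%, background 5.52%), namely Gria2, Gria3, Gria4, Grik2 and Htr2b. Why probe sets of a gene differed was not tested.

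For acetylcholine, none of the receptor gene values passed in limma, and of their probe sets 1 was called, of Chrm1. A probe set of Chrnb4 and one of Chrng passed the adjusted p in the adult but not the size of 1 (differences of 0.67 and -0.63). Of the 15 nicotinic genes, 1 slope (6.67%) and 2 adult differences (13.3%) had an unadjusted p under 0.05, and of the 3 muscarinic genes, 0 slopes and 1 adult difference, against the 31.3% and 31.0% of all genes. Chrna3, the α subunit of the main nicotinic receptor of autonomic ganglia, read 6.31, 6.88, 7.15, 6.68, 6.50 and 6.14 from E13.5 to E18.5 and 6.02 in the adult. The highest value was at E15.5 and the lowest in the adult, and neither term was called (adjusted p = 0.603 and 0.539). One of its 3 probe sets peaked at E14.5 (7.64) and had an adult difference of -1.05 ± 0.36 (SE; limma over probe sets, adjusted p = 0.0998), one peaked at E15.5 (7.26), and one had a range of 0.22.

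Chrnb4, the β subunit that pairs with Chrna3 in ganglia and chosen after its values were seen, had one probe set that read 5.01, 5.22, 5.37, 5.53, 5.55 and 5.41 and then 6.24 in the adult, a difference of 0.67 under the size of 1 (limma over probe sets, adjusted p = 0.0291). Its other probe set was between 5.16 and 5.57 on all arrays. Chrna7, the subunit of the homomeric nicotinic receptor and likewise chosen afterwards, had one probe set that read 5.39, 5.67, 6.19, 5.71, 5.77 and 5.67 and then 4.89, with its highest value at E15.5 (adult difference -0.93, limma over probe sets, adjusted p = 0.0696). The other Chrna7 probe set had a range of 0.46, its highest value at E17.5 and an adult difference of -0.01. The gene value of Chrna7 had a range of 0.58 and an adult difference of -0.47. Chrnb1, the β subunit of the muscle receptor, read 6.52, 6.35, 6.28, 6.36, 6.19, 6.89 and 7.04. Its last values were its highest, with no term called, and Chrna1, Chrnd, Chrne and Chrng, the other subunits of the muscle receptor, had ranges of 0.44, 0.41, 0.37 and 0.43.

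Of the muscarinic receptors, Chrm1, coupled to Gq, read 5.79, 5.73, 5.81, 5.83, 5.82, 6.00 and 6.22, the last in the adult. This order gave the rank correlation of 0.93, over a range of 0.49. Its slope was 0.04 ± 0.02 (SE; limma, adjusted p = 0.269), from one probe set that rose with a slope of 0.10 ± 0.02 (SE; limma over probe sets, adjusted p = 0.0404) and another with -0.02 ± 0.02 (SE; adjusted p = 0.594). Chrm4, coupled to Gi, read 5.08, 4.99, 4.80, 5.29, 4.92, 4.77 and 5.08 with no order. Chrm3, the receptor known for contraction of gut muscle and chosen after its values were seen, stayed within a range of 0.28. The 5 genes of acetylcholine synthesis, transport and breakdown had no call. Ache, acetylcholinesterase, read between 5.09 and 5.78 before birth and 6.34 in the adult (adult difference 0.58, limma, adjusted p = 0.0943). The vesicular acetylcholine transporter Slc18a3 was next in range (0.68). None of 5 genes of neuromuscular junction assembly was called, and the widest ranges were those of Agrn (0.69) and Lrp4 (0.66). Agrn had an adult difference of -0.52, under the size of 1. None of 4 chaperones and Ly6 regulators of nicotinic receptors was called, with Lynx1 (0.996) and Ly6h (0.86) the widest in range. Lynx1 had an adult difference of 0.78, again under the size of 1.

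Of the 15 GABA-A genes, 2 fell along the embryonic line, a share near the 10.4% of all genes, and none was called in the adult. Gabra4, an α subunit, read 4.93, 4.90, 4.95, 4.72, 4.67 and 4.28 from E13.5 to E18.5 and 4.58 in the adult. The last 3 embryonic days lay below the first 3, and the slope was -0.12 ± 0.03 (SE; limma, adjusted p = 0.0328). One of its probe sets had a slope of -0.23 ± 0.04 (SE; limma over probe sets, adjusted p = 0.00796), and the other had a range of 0.33. Gabra3, another α subunit, read 4.86, 4.84, 4.68, 4.66, 4.63 and 4.54 and then 4.74, with a slope of -0.06 ± 0.02 (SE; limma, adjusted p = 0.0478). Its probe sets had slopes of -0.13 and 0.0042. Both calls were lost when any embryonic array but E15.5 was left out, with adjusted p up to 0.174 for Gabra3 and 0.185 for Gabra4 in limma. Over all 6 such fits the slope of Gabra3 lay between -0.07 and -0.06 and that of Gabra4 between -0.15 and -0.07.

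The other 13 GABA-A genes had ranges between 0.11 and 0.45 with no call. Gabrb2, a β subunit, read 5.17, 5.11, 4.98, 5.43, 5.16, 5.31 and 5.06 in the order of the stages. Gabrr1, a ρ subunit, read 5.65, 5.59, 5.81, 5.66, 5.74, 5.75 and 5.42, and its adult difference of -0.34 did not pass (limma, adjusted p = 0.0859). Of 7 genes of GABA synthesis, transport and breakdown, 1 was called, as rising, against 9.12% of all genes. Abat, the enzyme that degrades GABA, read 6.88, 6.94, 7.21, 7.33, 7.57 and 7.67 and then 7.83 in the adult, each value above the one before it, with a slope of 0.17 ± 0.02 (SE; limma, adjusted p = 0.00265). Of 6 scaffold genes of inhibitory synapses, Gabarap alone rose (0.15 ± 0.04 per day, SE; limma, adjusted p = 0.0335), against the same share of all genes.

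For noradrenaline, the 2 receptor genes measured were flat and neither had an unadjusted p under 0.05 for either term. Adra1b read 5.46, 5.47, 5.24, 5.44, 5.51, 5.53 and 5.51, and Adra2c read 5.45, 5.45, 5.39, 5.36, 5.73, 5.52 and 5.62. Neither slope passed (limma, adjusted p = 0.712 and 0.515). None of the 4 genes of noradrenaline synthesis and breakdown was called. Dbh, dopamine β-hydroxylase, read between 5.44 and 5.71 in the embryonic arrays and 6.31 in the adult, a difference of 0.81 that was under the size of 1 (limma, adjusted p = 0.00756). Of 14 genes of G protein coupling and desensitization, 2 rose and 1 fell, against 9.12% and 10.4% of all genes. Rgs2, which inhibits Gq, rose from 7.64 to 9.27 before birth (slope 0.33 ± 0.06, SE; limma, adjusted p = 0.0112). Gna11, a Gq family α subunit, also rose (0.17 ± 0.03, SE; limma, adjusted p = 0.00615). The gene value of Gnas, whose locus encodes the Gs α subunit, fell from 6.49 to 5.43 before birth (-0.19 ± 0.03, SE; limma, adjusted p = 0.00535). Probe sets of these genes were not compared, and which Gnas transcripts that value reads was not examined.

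Markers of the cell types that carry receptors moved over the same arrays. The counts in these lists stand against all genes, of which 9.12% rose, 10.4% fell, 4.23% were higher in the adult and 3.26% lower. Of 11 enteric neuron markers, 5 rose along the embryonic line (Phox2a, Uchl1, Prph, Snap25 and Stmn2) and 6 were lower in the adult (Elavl3, Ret, Uchl1, Tubb3, Stmn2 and Gap43). Their summed log2 level was 73.2 to 82.6 in the embryonic arrays and 70.3 in the adult. The adult was also the lowest array for Gria3 and for the sums of the glia and endothelial lists below. Before birth the neuron sum was lowest at E13.5 and highest at E18.5. At these 2 stages Gria3 read 6.84 and 6.59. The probe sets of Gria2 and Gria4 called lower in the adult read 6.61 and 7.36, and 7.15 and 8.15. Whether these courses are linked was not tested. Of 11 smooth muscle markers, 7 rose (Actg2, Cnn1, Des, Lmod1, Myh11, Mylk and Tagln) and Myocd fell, and in the adult Smtn and Synpo2 were higher and Mylk and Myocd lower, with a sum of 84.8 to 96.1 against 98.0. Of 9 enteroendocrine markers, 6 rose (Chga, Chgb, Gcg, Neurod1, Pyy and Scg2) and Chga was also higher in the adult, with a sum of 52.0 to 66.9 against 70.7. All 10 epithelial markers rose, among them the gut factors Cdx1 and Cdx2, Krt20 was also higher in the adult, and their sum was 89.8 to 107.3 against 113.3.

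The remaining lists moved less or in the adult. Of 8 immune cell markers, 4 were higher in the adult (Cd3e, Csf1r, Lyz2 and Ptprc), with a sum of 41.6 to 44.8 against 52.0. Of 7 enteric glia and neural crest markers, Fabp7 and S100b rose, Foxd3 fell and Fabp7 was lower in the adult (43.4 to 46.5 against 41.8). Of 13 striated muscle markers, Actc1 rose and was then lower in the adult, and Tnni1 was higher there (71.4 to 74.4 against 73.4). Of the 3 markers of interstitial cells of Cajal and Pdgfra-type stroma, Kit and Pdgfra fell (21.6 to 24.1 against 22.9), and of 5 endothelial markers none was called (32.1 to 33.6 against 31.2). An array value has no true 0, so no marker can be called absent. The part of these shifts in the receptor values was not tested.

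**Figure D4:**
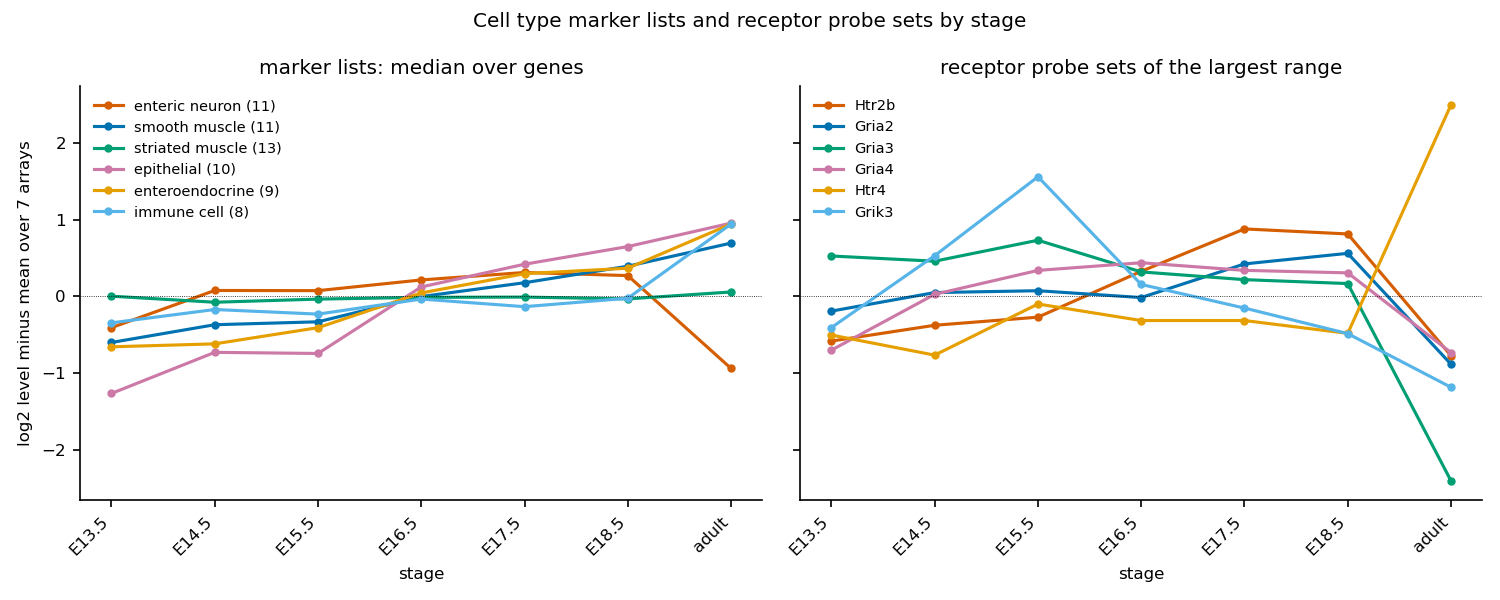
Log2 level minus the mean over the 7 arrays (y axis) by stage (x axis, E13.5 to adult, 1 array each): on the left the median over the genes of 6 marker lists, on the right the probe set of largest range of 6 receptor genes. The enteric neuron line goes from -0.41 on the first array to 0.27 on the last before birth and -0.94 in the adult. There the lines of Htr2b, Gria2, Gria3, Gria4 and Grik3 are also at their lowest and that of Htr4 is at its highest. The 6 genes were chosen after their values were seen. Not drawn are the widest probe sets of Grik2, Chrna3, Chrna7, Chrnb4, Gabra4 and Htr3a, with ranges from 1.19 to 1.63 against 1.17 for Gria4. Of these, Chrnb4 and Htr3a were highest in the adult, Gabra4 was lowest at E18.5, and the others were lowest in the adult. Other probe sets of Gria3, Gria4, Grik3 and Htr4 had ranges under 0.6.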

How the data were processed

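Total RNA of 7 mouse colon samples, 1 per stage, was hybridized to 7 arrays. The authors deposited log2 values made with RMA (background correction, quantile normalization and probe set summary), for which the submitters' processing notes list affy 1.22.1 under R 2.9.2. Whether RNA was pooled over animals is not given in the sources used here. Of 45101 probe sets, 34958 named 1 gene in the platform annotation, 932 named several and 9211 none. The median over single-gene probe sets gave 18194 genes, and 18033 of 18195 gene identifiers matched the RefSeq gene table. Fits used limma 3.58.1 in R 4.3.3, and the code was tested on simulated data. Receptor genes named with their values are those called or past the rank correlation cutoff with a range of at least 1, and in each class the 2 with the largest range and the 2 with the highest mean; others are said to be chosen after their values were seen. The receptors and gene lists were chosen with earlier results of these data known. Alternatives were the probe set of highest mean, other probe set and dim gene filters, centred arrays, other adult and slope terms, and each embryonic array left out. Quantile normalization makes levels relative to the whole array.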

Additional observations from a re-analysis of the deposited data

How the results depend on the processing

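No paired analysis was possible because each stage had 1 array. The number of receptor genes rising along the embryonic line was 1 and became 2 with the probe set of highest mean, 2 with a slope that ran through the adult as a further step (Grin3b and Htr3a, without Htr2b), 3 with each probe set fitted on its own (an alternative chosen after seeing the data) and 1 to 2 when each embryonic array was left out in turn (2 without E15.5 and 2 without E17.5). The number falling was 2 and became 0 without the dimmest 25% of genes, which left 28 receptor genes and removed Gabra3 and Gabra4, 1 with the slope through the adult, and 0 to 2 with arrays left out. Htr4, the 1 gene higher in the adult, was also removed by that filter, which gave 0. The adult set against the mean of the last 2 embryonic arrays gave 0 higher and 0 lower receptor genes and called 0 of all genes, with differences of 1.49 (Htr4), -1.24 (Gria3) and -1.62 (Htr2b). The number lower in the adult was 2 and became 5 with the probe set of highest mean and 4 with each probe set on its own, and leaving arrays out kept it at 2. Rank correlations above 0.9 numbered 1 and became 0 with the probe set of highest mean, 0 with centred arrays and 2 to 4 with arrays left out, and those below -0.9 numbered 0 and became 1 with the probe set of highest mean, 1 in the embryonic arrays alone and 0 to 3 with arrays left out. The slope of Chrm1 changed from 0.0379 to -0.0205 with the probe set of highest mean, and the adult difference of Gria4 from -0.0353 to a range of -0.0726 to 0.0198 with arrays left out, the last without E18.5. The causes of the other shifts were not tested. The single array per stage limits the precision.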
